A study of Mus musculus with 9 samples.

Results

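The genes followed here are 9 that are switched on or raised as mouse embryonic stem cells leave the naive state, measured in poly-A RNA: Otx2, Foxd3, Fgf5, Pou3f1, Zic2, Sox3, Sox4, Sox11 and Grhl2. The table held 15526 gene rows, and 8 of the 9 names had a row; Fgf5, the secreted ligand among them, had none and was not analysed here. The mean level of 3 genes (Otx2, Foxd3 and Zic2) reached the minimum of 10 normalised read counts set for testing, about 92 reads per library, and that of 5 (Grhl2, Sox4, Pou3f1, Sox11 and Sox3) did not. The study compared unedited cells (WT) with KO1 and KO2, lines edited independently of each other to remove Kif2a, which encodes a kinesin that depolymerises microtubule ends. All 3 groups were untreated ES cells whose cell type label reads 129, each with 3 libraries numbered 1 to 3. Each edited line was a separate knockout, so a difference seen in 1 line cannot be told apart from a difference of that line for other reasons. The labels do not state whether the libraries of a group came from separate cultures, so the p-values cover the spread among the 9 libraries and nothing more.

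Naive ES cells resemble the epiblast before implantation. On release they pass through a formative state, in which lineage genes become inducible, to a primed state like that of the epiblast after implantation; FGF and ERK signalling drives this exit. Otx2, a homeodomain factor, moves with Pou5f1 to new enhancers during the exit, and Foxd3, a forkhead factor, is required to maintain ES cells and the early epiblast. Pou3f1 (also called Oct6) is a POU domain factor of the primed epiblast and of the neural fate, and Zic2 is a zinc finger factor bound at enhancers in ES cells. Sox3 (SOXB1 family) and Sox4 and Sox11 (SOXC family) are HMG box factors best known from neural progenitors and young neurons. Grhl2, a grainyhead factor, opens enhancers of epithelial genes in the formative epiblast.

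The sequences before the start sites of Foxd3 and Otx2 are shown because these were the genes called in a comparison. They come from RefSeq (GRCm38.p6) and hold the 250 bases before the start, 5′ to 3′ on the gene's strand. Of the 9 genes 5 had an entry (Otx2 with 4 starts, and Foxd3, Fgf5, Sox4 and Sox11 with 1 each). Capitals mark matches, on either strand, to a short list of motifs, and the 2 capitalised runs in Foxd3 do not overlap.
Foxd3, chr4:99656049-99656298, plus strand: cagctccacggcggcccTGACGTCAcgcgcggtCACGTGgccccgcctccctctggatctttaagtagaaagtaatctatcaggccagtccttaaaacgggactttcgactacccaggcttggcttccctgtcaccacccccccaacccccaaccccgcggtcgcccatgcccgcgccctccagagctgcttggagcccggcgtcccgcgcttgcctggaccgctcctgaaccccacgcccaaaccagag
Otx2, chr14:48665110-48665359, minus strand: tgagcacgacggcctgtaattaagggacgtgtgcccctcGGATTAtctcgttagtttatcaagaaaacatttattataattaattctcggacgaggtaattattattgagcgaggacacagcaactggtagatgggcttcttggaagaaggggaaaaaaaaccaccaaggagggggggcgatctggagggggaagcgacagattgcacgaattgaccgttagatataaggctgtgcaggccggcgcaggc

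The Foxd3 window was 65.6% G and C, and held the cAMP response element TGACGTCA 225 bases and the E-box CACGTG 211 bases before the start. Among 32851 RefSeq windows of this length, 1.55% held that response element and 6.02% held that E-box. The Otx2 window was 48.4% G and C and held, 205 bases before the start, the run GGATTA, the reverse complement of the OTX motif TAATCC, which stood in 6.25% of all windows. The other 3 Otx2 windows and the Sox4 window held none of the 9 motifs searched, which also included the octamer ATGCAAAT (1.6% of windows), the SOX and TCF core AACAAAG (5.03%), the ETS motif CCGGAAG (6.91%), the forkhead motif TGTTTAC (3.17%), the ESRRB motif TCAAGGTCA (0.387%) and the GC box GGGCGG (32.7%). The Fgf5 window held 1 GC box and the Sox11 window 2. A match describes the letters of the window and is not a measured binding site.

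The libraries held 14960295 to 18814858 reads. Kif2a stood at 114 ± 6.49 normalised read counts in WT (SD, n = 3), 0.999 ± 0.140 in KO1 and 1.17 ± 0.528 in KO2, which is 0.952% of the WT level over the 6 knockout libraries. Each of them lay below each WT library. An exact permutation test, made two-sided by doubling the p of 1 tail, gave p = 0.0238, the lowest value this doubling allows with 84 assignments. The pluripotency factors Pou5f1 and Nanog, which define ES cells, stood at 1051 ± 44.5 and 752 ± 12.1 normalised read counts per kb of exon in WT, and neither passed the limma test in either line. Zfp42, another ES cell marker, averaged 1330 ± 15.8 normalised read counts in WT, 1270 ± 27.9 in KO1 and 1182 ± 21.5 in KO2. Its 3 groups were fully separate. Esrrb averaged 1308 ± 33.6, 1335 ± 9.91 and 1246 ± 20.6, and Sox2 368 ± 40.3, 352 ± 30.7 and 421 ± 21.7. All KO2 libraries lay below WT for Esrrb and above WT for Sox2. Of 10238 genes tested with limma at an adjusted p under 0.05, 85 were higher and 24 lower in KO1, and 1123 were higher and 769 lower in KO2. Higher calls made up 78.0% of the KO1 calls with the authors' scaling, 63.1% after quantile normalization and 61.7% after median-ratio scaling; for KO2 these shares were 59.4%, 50.4% and 51.2%, and for the mean of both lines 67.8%, 53.4% and 52.9%.

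Otx2 (ENSMUSG00000021848, chr14:48657677-48673819, minus strand, GRCm38, 6 exons in its longest transcript) had the highest level per length of the genes. Its normalised read counts were 71.3, 76.9 and 79.9 in WT, 74.9, 74.7 and 78.5 in KO1, and 94.5, 83.6 and 100.6 in KO2. Each KO2 library lay above each WT and each KO1 library, while the KO1 values lay inside the WT range. The group means were 76.0 ± 4.34 in WT, 76.0 ± 2.13 in KO1 and 92.9 ± 8.61 in KO2 (SD, n = 3).

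Otx2 rose in KO2, to 1.22 times its WT mean, with a log2 fold change of 0.28 ± 0.07 (SE; 95% interval 0.14 to 0.43; limma adjusted p = 0.00302). It was the 1 member called among the 3 tested, where 18.5% of all tested genes were called in either direction, 11% higher and 7.51% lower. All 3 KO2 libraries were above WT for 18.7% of tested genes. The difference between the lines was of the same size, 0.28 ± 0.07 for KO2 against KO1 (limma adjusted p = 0.0057), a comparison in which 9.92% of tested genes were called, 4.71% higher and 5.22% lower. Otx2 was again the 1 member called, and all KO2 libraries lay above all KO1 libraries for 12.7% of tested genes. In KO1 against WT the estimate for Otx2 was 0.0007 ± 0.07 (95% interval -0.14 to 0.14, limma adjusted p = 0.998), and its sign turned under other scalings. These fold changes are on the scale of log2(value + 1).

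**Figure D1:**
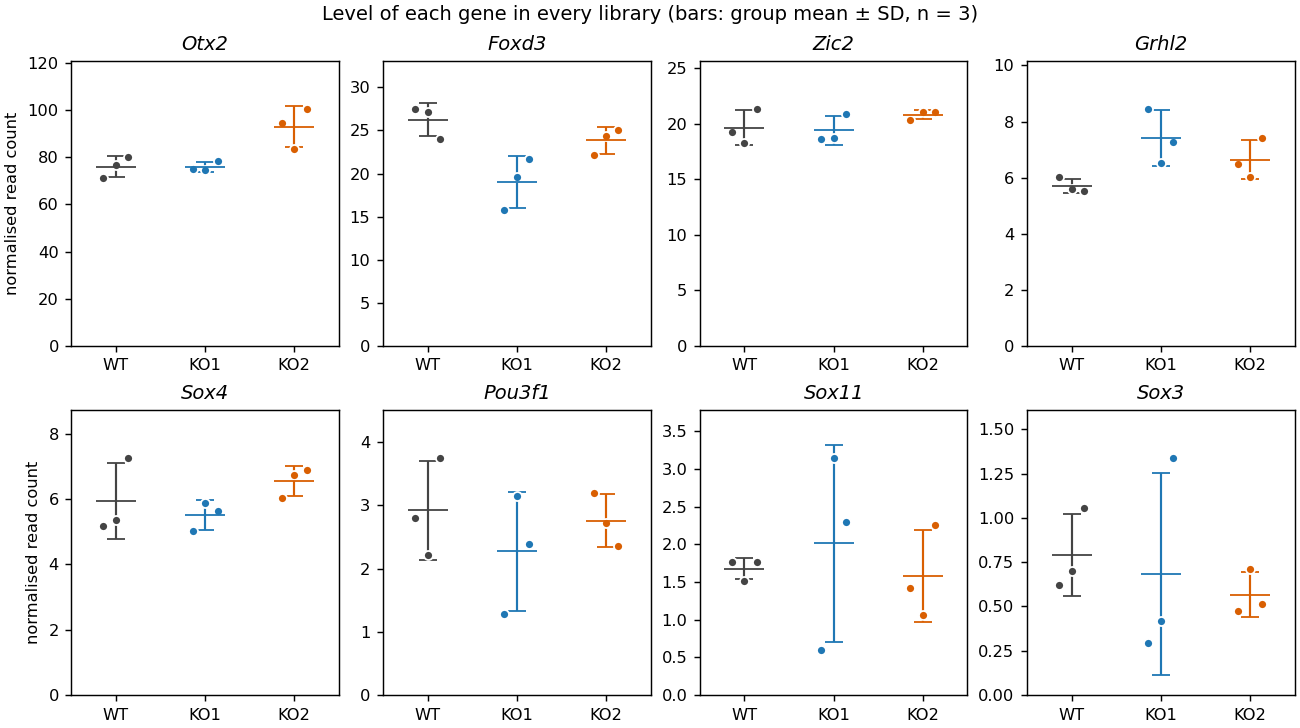
Normalised read count (vertical axis, from 0, own scale per gene) of the 8 genes with a row, in each WT, KO1 and KO2 library; points are libraries, and bars give the group mean ± SD (n = 3). The KO2 points of Otx2 (83.6 to 100.6) sit above all others, the KO1 points of Foxd3 (15.7 to 21.7) sit below all others, and the 3 WT points of Grhl2 (5.52 to 6.01) sit below all knockout points.

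The Otx2 locus also holds Otx2os1, a noncoding gene on the opposite strand that shares 154 exon bases with it in GENCODE M21. Otx2os1 stood at a mean of 0.852 normalised read counts over the 9 libraries. In poly-A RNA from whole cultures, a change in the share of cells that express a gene and a change in its RNA per cell cannot be told apart. Markers of other cells differed in the same libraries. All 3 tested fibroblast (feeder) markers, Pdgfrb, Fbln2 and Col5a1, rose in KO2 (0.33 to 0.62), and none was called in KO1 by limma, edgeR or DESeq2, with 2 at an unadjusted p under 0.05. The summed level of 7 fibroblast (feeder) markers with a row, of 12 listed, was 120 to 124 in WT, 124 to 129 in KO1 and 159 to 162 in KO2. Col5a1 made up most of that sum, with a WT mean of 77.5 against 97.9 for KO2. Below the minimum level, limma with no minimum called Thy1 higher in KO2 (0.51, adjusted p = 0.0335). The fibroblast collagen genes Col1a2 and Col1a1 stood at 0.796 and 0.826 of WT in KO2, the former with all KO2 libraries below WT, and neither was called (adjusted p = 0.478 and 0.716). The defining markers Col3a1, Lum, Dcn, Postn and Prrx1 had no row. Of 7 tested primitive endoderm markers 3 rose in KO1 and 5 in KO2, where Gata4, an endoderm transcription factor, rose by 0.64 ± 0.13 (limma adjusted p = 0.000334). The summed level of 9 primitive endoderm markers, of 14 listed, was 1718 to 1845 in WT, 1953 to 1973 in KO1 and 1966 to 2022 in KO2, and the defining Gata6, Sox7, Sox17, Cubn and Foxa2 had no row. Most of that sum came from Sparc, whose group means were 722, 733 and 737, and Apoe, with 573, 676 and 692. Other endoderm markers were lower: Dab2 fell in KO2 to 0.580 of its WT mean (-0.65, limma with no minimum level, adjusted p = 0.0283), Pdgfra stood at 0.376 of WT in KO1 with all libraries below WT and no call (0.16), and Col4a1 at 0.851 with all KO1 libraries below WT and no call (limma adjusted p = 0.105). The part of these cells in the Otx2 difference was not tested.

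Foxd3 (ENSMUSG00000067261, chr4:99656299-99658622, plus strand, GRCm38, a gene of 1 exon) moved in the other line. Its normalised read counts were 27.5, 27.1 and 24.1 in WT, 15.7, 19.6 and 21.7 in KO1, and 22.1, 24.4 and 25.1 in KO2. Each KO1 library lay below each WT and each KO2 library, whereas the KO2 and WT ranges overlapped. The group means were 26.2 ± 1.90, 19.0 ± 3.03 and 23.8 ± 1.56 (SD, n = 3), from 160 to 266 reads per library.

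Foxd3 fell in KO1, to 0.726 of its WT mean, by 0.45 ± 0.12 on the log2 scale (SE; 95% interval -0.69 to -0.22; limma adjusted p = 0.0325). It was the 1 member called of 3 tested in KO1 against WT, where 1.06% of tested genes were called, 0.83% higher and 0.234% lower; all KO1 libraries lay below WT for 5.2% of tested genes. This call rested on single libraries. With WT replicate 1 left out the estimate was -0.42 and no longer passed (limma adjusted p = 0.137), and the same held for WT replicate 2 (-0.43, 0.123), KO1 replicate 1 (-0.33, 0.322) and KO1 replicate 2 (-0.48, 0.0853). In KO2 against WT the estimate was -0.13 ± 0.12 (95% interval -0.37 to 0.10, limma adjusted p = 0.468). The difference between the lines, 0.32 ± 0.12, did not pass the test over all genes (95% interval 0.09 to 0.55, limma adjusted p = 0.0681). It passed without KO1 replicate 3 (0.42, limma adjusted p = 0.0407). A difference between the lines was thus not shown for Foxd3 with all libraries in the fit.

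Foxd3 also marks neural crest cells. Of 9 neural crest markers 5 had a row, and their summed level was 148 to 154 in WT, 156 to 171 in KO1 and 140 to 158 in KO2; the defining Sox10, Sox9, Pax3 and Tfap2b had no row. The 2 tested members of that list had no call against WT in either line by limma, edgeR or DESeq2, and 1 had an unadjusted p under 0.05 in KO1 and 0 in KO2. Between the lines 1 of them, Ngfr, was lower in KO2 (-0.25 ± 0.07, limma adjusted p = 0.0146). It lost this call without KO1 replicate 1 (-0.23) or 3 (-0.20) or KO2 replicate 3 (-0.17).

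Zic2 (ENSMUSG00000061524, chr14:122475435-122479852, plus strand, GRCm38, 3 exons), on the same chromosome as Otx2, had no call. Its normalised read counts were 19.3, 18.3 and 21.4 in WT, 18.6, 18.7 and 20.9 in KO1, and 20.3, 21.1 and 21.1 in KO2. All 3 groups overlapped. Its log2 fold change was -0.02 ± 0.12 in KO1 (95% interval -0.25 to 0.22, limma adjusted p = 0.975) and 0.08 ± 0.12 in KO2 (95% interval -0.15 to 0.32, limma adjusted p = 0.669). The KO2 interval includes a change as large as that of Otx2.

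When both lines were averaged and set against WT, 9.09% of tested genes were called, 6.16% higher and 2.93% lower, and 0 of the 3 tested members were. Foxd3 stood at -0.29 ± 0.10 (limma adjusted p = 0.0564) and Otx2 at 0.14 ± 0.06 (0.141). Both had an unadjusted p under 0.05, and edgeR called 1 member (Foxd3, adjusted p = 0.0411) and DESeq2 0.

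Grhl2 (ENSMUSG00000022286, chr15:37233036-37363569, plus strand, GRCm38, 16 exons in its longest transcript) lay below the minimum for testing. Its normalised read counts were 6.01, 5.58 and 5.52 in WT, 8.46, 6.51 and 7.27 in KO1, and 6.50, 6.03 and 7.40 in KO2. All 6 knockout libraries lay above the 3 WT libraries, as they did for 5.18% of all rows, although KO2 replicate 2 exceeded the highest WT library by less than the SD of any group. In a limma fit with no minimum level, which covered all 15526 rows and called 0.728% of them in KO1 and 12.3% in KO2, Grhl2 did not pass. Its log2 fold change was 0.32 ± 0.18 in KO1 (95% interval -0.04 to 0.68, adjusted p = 0.528) and 0.19 ± 0.18 in KO2 (95% interval -0.17 to 0.55, adjusted p = 0.563). Over both lines it was 0.25 ± 0.16 (limma adjusted p = 0.386).

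The SOXC genes Sox4 (ENSMUSG00000076431, chr13:28948919-28953713, minus strand, GRCm38) and Sox11 (ENSMUSG00000063632, chr12:27334264-27342574, minus strand, GRCm38) each have 1 exon. The normalised read counts of Sox4 were 5.18, 5.35 and 7.28 in WT, 5.02, 5.88 and 5.65 in KO1, and 6.03, 6.74 and 6.89 in KO2. For Sox4 the KO2 libraries lay above all KO1 libraries, as for 11.5% of all rows, and inside the WT range. Of the exon bases of Sox4, 2616 overlap those of the noncoding Gm26735 on the opposite strand, and whether reads were counted by strand is not given in the sources used here. Sox11 gave 1.76, 1.51 and 1.76 normalised read counts in WT, 0.591, 3.15 and 2.30 in KO1, and 1.42, 1.06 and 2.26 in KO2, from 6 to 30 reads per library. The KO1 libraries of Sox11 spanned the range of all 9 libraries.

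Pou3f1 (ENSMUSG00000090125, chr4:124656807-124660655, plus strand, GRCm38, 1 exon) was found at 13 to 32 reads per library. Its normalised read counts were 2.80, 2.21 and 3.75 in WT, 1.28, 3.15 and 2.39 in KO1, and 3.19, 2.72 and 2.36 in KO2, and the groups overlapped. Sox3 (ENSMUSG00000045179, chrX:60891366-60893430, minus strand, GRCm38, 1 exon), a paralog of Sox2, was covered by 3 to 14 reads per library. Its normalised read counts were 0.621, 0.698 and 1.06 in WT, 0.295, 0.420 and 1.34 in KO1, and 0.473, 0.710 and 0.514 in KO2. KO1 replicate 1 was the lowest of the 9 libraries for Pou3f1, Sox4, Sox11, Sox3 and Foxd3, whereas for Grhl2 it was the highest.

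None of the 5 genes below the minimum was called in any comparison, by limma with no minimum level or by edgeR with no minimum level. The edgeR fit called 0.657% of all rows in KO1, 12.1% in KO2, 5.65% for both lines and 6.67% between the lines; the limma fit called 5.82% for both lines and 5.99% between the lines. None of the 5 had an unadjusted p under 0.05 in either fit. Their limma 95% intervals were wide: for Sox3 -0.67 to 0.40 in KO1 and -0.73 to 0.35 in KO2, for Sox11 -0.46 to 0.59 and -0.60 to 0.45, for Pou3f1 -0.76 to 0.19 and -0.52 to 0.42, and for Sox4 -0.45 to 0.29 and -0.24 to 0.51. Differences inside these intervals remain compatible with the values.

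**Figure D2:**
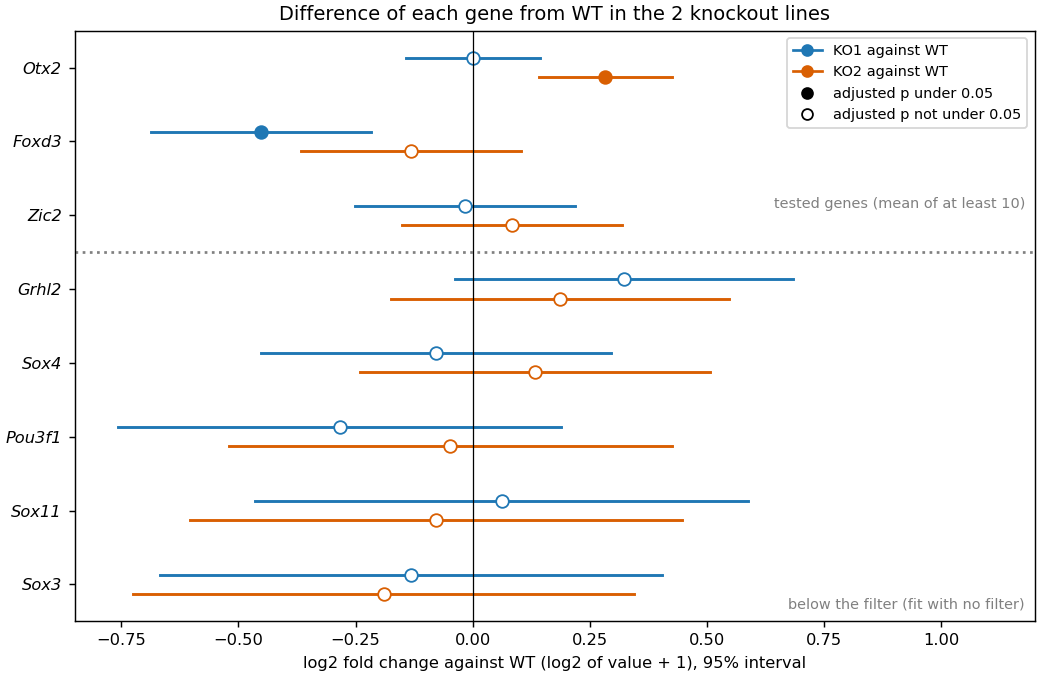
Log2 fold change against WT (horizontal axis, log2 of value + 1) of the 8 genes in KO1 and KO2 with 95% intervals; filled points passed the limma test, and genes below the dotted line come from the fit with no minimum level. Filled points are those of Otx2 in KO2 (0.28) and Foxd3 in KO1 (-0.45), and the intervals widen from Otx2 to Sox3.

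Divided by the length of exon, the genes ranked in WT from Otx2 to Sox11. Otx2 stood at 18.0 ± 1.03 normalised read counts per kb (SD, n = 3), above 68.8% of the 15223 genes with a length. Foxd3 followed at 11.3 ± 0.817 (58.9%) and Zic2 at 6.81 ± 0.549 (48.6%), and these 3 did not overlap in their WT libraries. Sox4 stood at 1.24 ± 0.243, Pou3f1 at 0.759 ± 0.203, Grhl2 at 0.662 ± 0.0309, Sox3 at 0.383 ± 0.112 and Sox11 at 0.202 ± 0.0173, between the 6.98th and 24.7th percentiles. Pou3f1 and Grhl2 did not differ beyond their spread, and they changed places when the longest transcript was used as the length. With that length the WT level per kb was 29.3 for Otx2, 8.04 for Zic2 and 1.15 for Grhl2, and the order of Otx2, Foxd3 and Zic2 was kept. The level per kb of the pluripotency factor Sox2, 179 ± 19.6, was far above that of each gene listed.

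Family relatives place these levels. Of 19 relatives 13 had a row and 7 were tested; Foxd2, Foxd4, Fgf6, Pou3f4, Zic1 and Zic4 had none. In WT, Otx2 was well above its paralogs Otx1 (0.184 ± 0.0407 per kb) and Crx (0.185 ± 0.0974), and Foxd3 was above Foxd1 (0.596 ± 0.0547). Zic2 was above Zic5 (3.64 ± 0.215). The opposite held for the SOX and grainyhead genes, in which a relative was the most abundant: Sox2 for SOXB1, with Sox1 at 1.07 ± 0.301, Sox12 (18.5 ± 0.533) for SOXC, and Grhl3 (29.3 ± 1.26) for the grainyhead genes, with Grhl1 at 2.12 ± 0.374. Pou3f1, Pou3f2 (0.694 ± 0.0606) and Pou3f3 (0.358 ± 0.221) were all low.

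**Figure D3:**
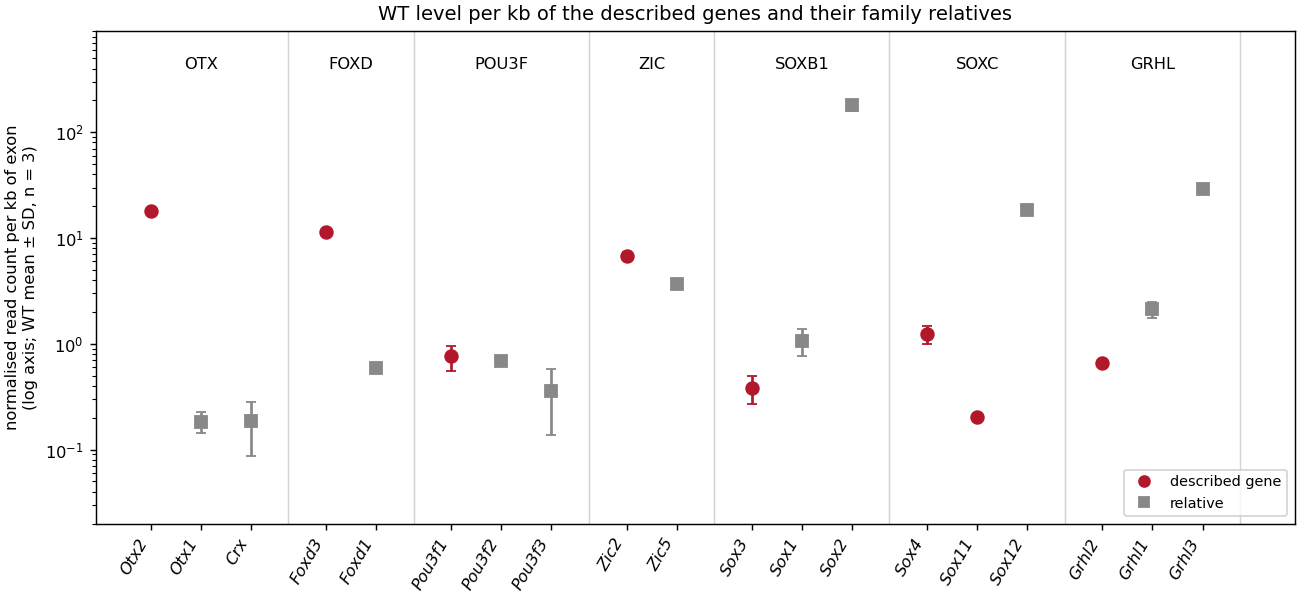
WT level per kb of exon (vertical log axis, mean ± SD, n = 3) of the described genes (circles) and of relatives of the transcription factors (squares), by family. Otx2 (18.0) and Foxd3 (11.3) top their families, while Sox2 (179), Sox12 (18.5) and Grhl3 (29.3) lie above the described members of theirs.

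None of the 7 tested relatives was called in KO1 by limma, edgeR or DESeq2, and 3 had an unadjusted p under 0.05. In KO2 limma called 3, and 2 of these are described here. Fgf4, the ligand that starts FGF and ERK signalling in ES cells, rose by 0.26 ± 0.04 (adjusted p = 5.28e-06), from 575, 540 and 544 in WT to 650, 639 and 696 in KO2, with KO1 between them at 618, 592 and 605. Its KO2 libraries also lay above all KO1 libraries (0.13 ± 0.04, limma adjusted p = 0.0337), a call lost without KO1 replicate 1, 2 or 3 or KO2 replicate 3 (0.09 to 0.14). Grhl3, the most abundant grainyhead gene, rose by 0.32 ± 0.07 (limma adjusted p = 0.000567), from 79.1, 85.8 and 80.6 in WT to 111, 92.4 and 103 in KO2; the KO1 values of 89.9, 91.5 and 92.2 were also above WT but had no call (0.15 ± 0.07, limma adjusted p = 0.312). For both lines against WT, Grhl3 was higher by 0.23 ± 0.06 (limma adjusted p = 0.00566), a call lost with the knockout libraries pooled as 1 group (0.0593). Grhl3, like Grhl2, had every knockout library above every WT library, as 6.37% of tested genes did.

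Zic5 stood near 0 in both lines (0.00 ± 0.12 and -0.02 ± 0.12). Sox2 was not called against WT in either line but was higher in KO2 than in KO1 (0.26 ± 0.07, limma adjusted p = 0.0427). That call was lost by edgeR (0.26) and DESeq2 (0.26), after quantile normalization (0.27) or median-ratio scaling (0.27), and with the replicate block (0.26). It was also lost without WT replicate 2, KO1 replicate 1 or 2, or KO2 replicate 2 or 3 (0.22 to 0.26).

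Of 27 other genes of the formative and primed states, 26 had a row and 17 were tested. In KO1 limma, edgeR and DESeq2 each called 0 of them, and 6 had an unadjusted p under 0.05; the median log2 fold change was -0.01, against 0.02 over all tested genes. In KO2, 2 rose and 5 fell, with a median of -0.02 against 0.02 over all tested genes. Dnmt3b, the de novo DNA methyltransferase of the epiblast, fell by 0.38 ± 0.05 (limma adjusted p = 6.14e-08). Its values were 242, 242 and 251 in WT, 226, 227 and 230 in KO1, and 189, 190 and 187 in KO2, so that the 3 groups were fully separate. The KO1 values of Dnmt3b did not make a call against WT, and the difference between the lines did (-0.27 ± 0.05, limma adjusted p = 0.000103). Of the listed genes below the minimum, the fits with no minimum level called Spry4, an inhibitor of the FGF and ERK pathway, lower in KO2 (limma -0.66, adjusted p = 0.0304; edgeR adjusted p = 0.0265).

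Nodal, a TGF-beta ligand that sustains the primed epiblast, fell in KO2 by 0.21 ± 0.06 (limma adjusted p = 0.00496), which did not pass once WT replicate 1 was left out (-0.17). Tead2, a partner of YAP, rose by 0.26 ± 0.05 (limma adjusted p = 9.16e-05), with values of 214, 199 and 203 in WT and 244, 244 and 250 in KO2. Cldn6, a tight junction claudin of the epiblast, rose by 0.47 ± 0.13 (limma adjusted p = 0.00781), which did not pass once WT replicate 2 was left out (0.36). Between the lines 3 of the 17 were called: Dnmt3b was lower in KO2, and Tead2 (0.15 ± 0.05, limma adjusted p = 0.0411) and Utf1, a chromatin factor of pluripotent cells (0.26 ± 0.08, 0.0208), were higher. Tead2 lost this call with no minimum level (0.15) and with the replicate block (0.15). The Tead2 call was also lost without KO1 replicate 1, 2 or 3 or KO2 replicate 1, 2 or 3 (0.14 to 0.16). Utf1 lost its call without KO1 replicate 1 or 2 or KO2 replicate 1 or 2 (0.17 to 0.25).

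Naive pluripotency genes, which fall on exit from the naive state, moved in both directions. All 20 were tested. In KO1, 1 rose: Dppa3, a germline and naive marker (0.38 ± 0.06, limma adjusted p = 4.01e-05). In KO2, 4 rose and 4 fell, with a list median of -0.06 against 0.02 over all tested genes. The 4 with the smallest adjusted p in KO2 all rose: Fgf4, Socs3, a target and inhibitor of LIF signalling (0.26 ± 0.05, limma adjusted p = 0.000119), Dppa3 (0.31 ± 0.06, 0.000165) and the adhesion molecule gene Pecam1 (0.23 ± 0.05, 0.000237). Sall4, given below, was among the 4 called lower. By mean level, and not chosen by a call, Zfp42 stood in KO2 at 0.889, Tbx3 at 0.897 and Gbx2 at 0.832 of WT. All KO2 libraries lay below WT for Zfp42, Tbx3 and Gbx2. The mean of Gbx2 over the 9 libraries, 11.7, was close to the minimum of 10 for testing. Of 5 core pluripotency genes none was called in KO1 by limma, while edgeR and DESeq2 each called 1 and 1 had an unadjusted p under 0.05. In KO2 Sall4, a zinc finger factor, fell by 0.17 ± 0.04 (limma adjusted p = 0.00181).

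Of 29 genes for signals and gates of the naive exit, 28 were tested. None was called in KO1 by limma, edgeR or DESeq2, with 4 at an unadjusted p under 0.05. In KO2, 5 rose and 4 fell, with a median of 0.02 against 0.02 over all tested genes. Tdgf1, the co-receptor of Nodal, rose by 0.39 ± 0.04 (limma adjusted p = 5.49e-10), while its ligand Nodal fell in the same libraries. Among the kinases below FGF4, Map2k1, a MEK kinase, rose by 0.18 ± 0.05 (limma adjusted p = 0.00428) and Mapk3, an ERK kinase, by 0.24 ± 0.06 (0.00483); Mapk3 lost its call without WT replicate 2 (0.17).

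**Figure D4:**
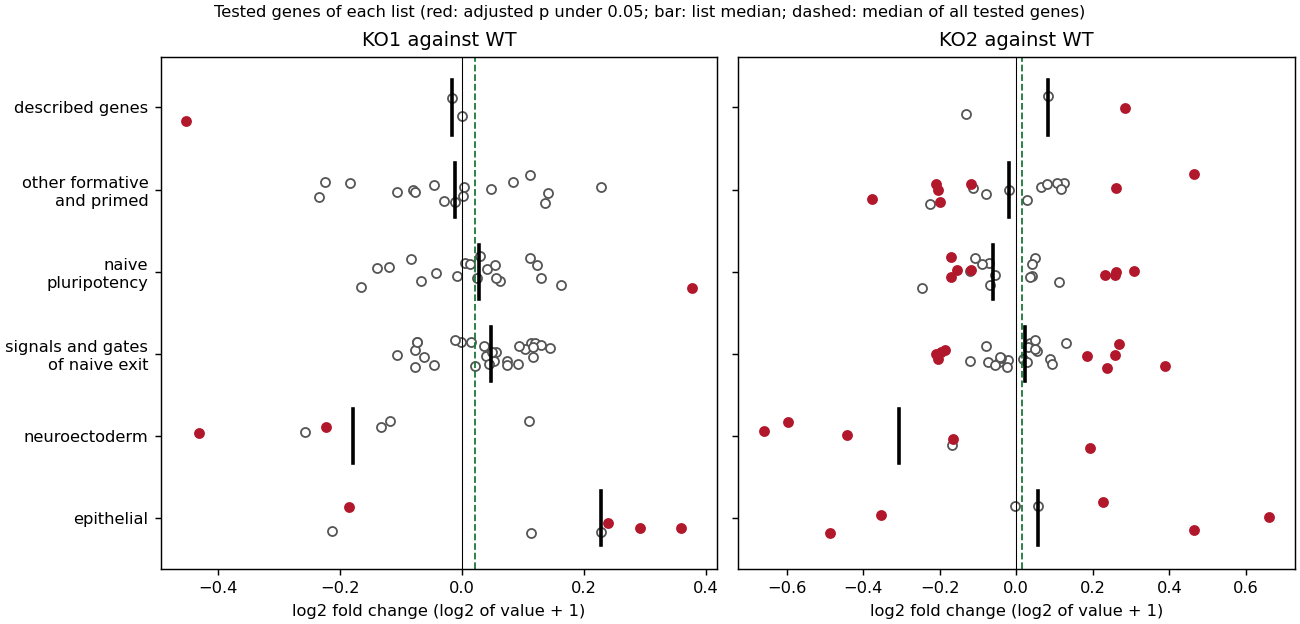
Log2 fold change (horizontal axis, log2 of value + 1) of each tested gene of 6 lists in KO1 and KO2 against WT; red points passed the limma test, black bars are list medians and the dashed line is the median of all tested genes (0.02). The other formative and primed genes lie on both sides of 0 in both panels, with 0 of 17 red in KO1 and 7 of 17 in KO2.

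Epithelial genes of the field that Grhl2 controls were followed beside it. Of 12 listed 11 had a row. Their summed level, which includes Zeb1 and Vim, was 2697 to 2779 in WT, 2890 to 2959 in KO1 and 2732 to 2806 in KO2. The KO2 and WT ranges of this sum overlapped. Of the list 7 were tested, and 3 rose and 1 fell in KO1. Dsp, the desmosomal plaque protein, rose by 0.36 ± 0.06 (limma adjusted p = 0.000113), Epcam, an epithelial adhesion molecule, by 0.29 ± 0.05 (0.000844) and Cldn4, a claudin, by 0.24 ± 0.05 (0.0106). Vim, the mesenchymal intermediate filament vimentin, fell by 0.19 ± 0.04 (0.0146). Cldn4 was no longer called with WT replicate 2 (0.19) or KO1 replicate 1 (0.24) or 2 (0.24) left out, and the Vim call ended with the removal of WT replicate 2 (-0.18) or 3 (-0.18), or of KO1 replicate 1 (-0.19) or 2 (-0.15). In KO2, 3 rose and 2 fell, with a list median of 0.06 against 0.02 over all tested genes. Dsp rose by 0.66 ± 0.06 (limma adjusted p = 1.66e-12) and Cldn4 by 0.23 ± 0.05 (0.00204), while Vim fell by 0.49 ± 0.04 (1.34e-12), as did the gene of the epithelial repressor Zeb1, by 0.35 ± 0.08 (0.00055). Cldn7, a claudin below the minimum, was called higher in KO2 with no minimum level (limma 0.80, adjusted p = 0.00577; edgeR adjusted p = 0.0163). Epcam averaged 152 ± 0.546 normalised read counts in WT and 152 ± 8.29 in KO2, below the 186 ± 6.01 of KO1.

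Neuroectoderm markers bear on Sox3, Sox11 and Pou3f1, which are expressed in neural cells too. Of 16 listed 11 had a row and 6 were tested; Dcx, Neurog2, Hes5 and Olig2 were among those with none. In KO1, Nefm, a neurofilament subunit, and Stmn2, a stathmin, fell (-0.43 ± 0.09 and -0.22 ± 0.05; limma adjusted p = 0.00767 and 0.0127). Nefm lost its call without WT replicate 1 (-0.41) or KO1 replicate 1 (-0.36), and the Stmn2 call ended with the removal of WT replicate 2 (-0.20) or 3 (-0.21), or of KO1 replicate 1 (-0.20) or 3 (-0.22). In KO2, 4 fell and 1 rose; Tubb3, a neuronal tubulin, fell by 0.66 ± 0.07 (limma adjusted p = 4.74e-10) and Nefm by 0.60 ± 0.09 (5.77e-06). Nefl, another neurofilament subunit, fell by 0.44 ± 0.08 (9.84e-05), and Nes, the neural progenitor filament nestin, rose by 0.19 ± 0.05 (0.00474). The summed level of the 11 markers was 674 to 681 in WT, 620 to 646 in KO1 and 595 to 623 in KO2. The part of neural cells in the levels of the described genes was not tested. Of the markers of primitive streak and trophoblast, 1 and 3 were tested, and limma, edgeR and DESeq2 called 0 of them in either line; 0 and 2 had an unadjusted p under 0.05 in KO1, and 0 in KO2. In the fits with no minimum level, markers with few reads were called in KO2: T, the brachyury gene of the streak, fell to 0.395 of WT (limma -0.89, adjusted p = 0.0087; edgeR adjusted p = 0.022) and Cdx2, a trophoblast factor, to 0.416 (limma -0.88, adjusted p = 0.00783; edgeR adjusted p = 0.0222). Hand1, another trophoblast factor, was called higher by limma (0.77, adjusted p = 0.0418) and not by edgeR (0.0865).

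Otx2, Foxd3 and Zic2 did not move as a block over the 9 libraries. As a description, Pearson's r of log2(value + 1) was 0.17 between Otx2 and Foxd3, 0.60 between Otx2 and Zic2 and 0.27 between Foxd3 and Zic2. Among 9809 named genes, the patterns most like that of Otx2 were those of Eif4ebp2, which encodes a translation repressor (r = 0.978), and Scd2, which encodes a fatty acid desaturase (r = 0.960). For Foxd3 they were those of Gpr137b (r = 0.937) and Mtfp1 (r = 0.907). All these values share the same libraries, and the largest of so many correlations over 9 points are high by selection.

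**Figure D5:**
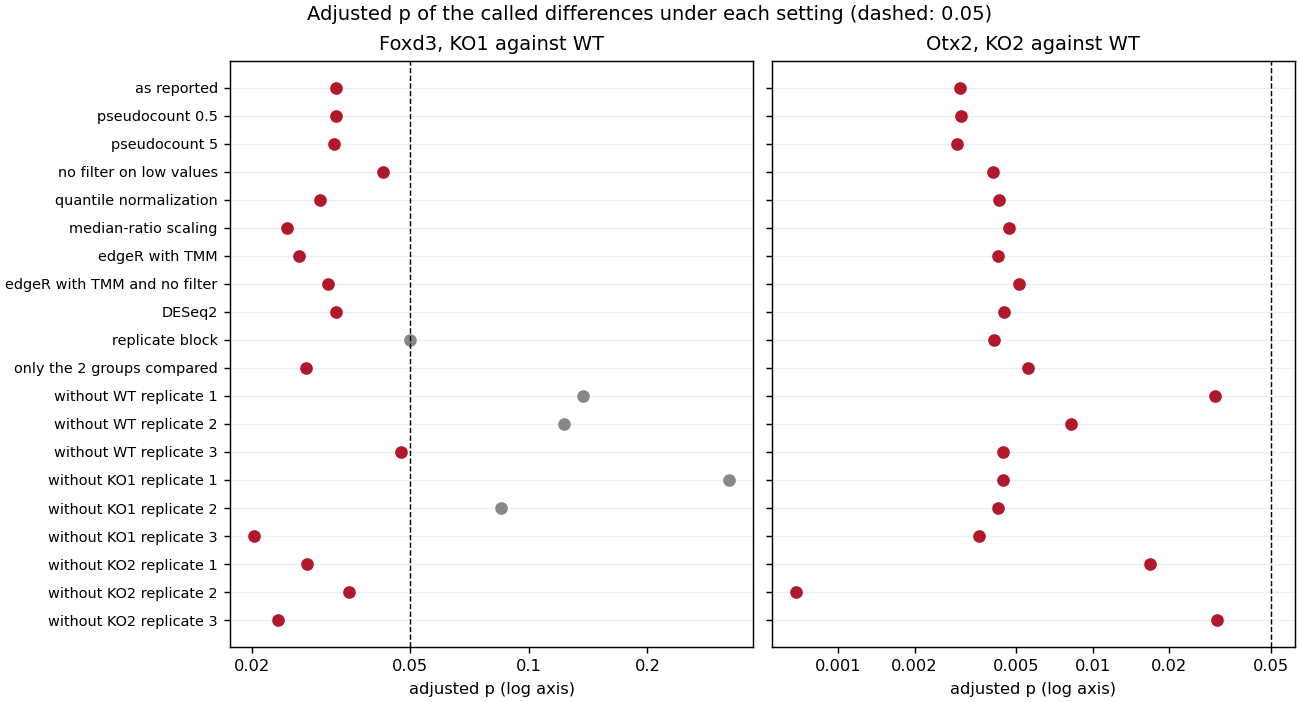
Adjusted p (horizontal log axis, dashed line at 0.05) of Foxd3 in KO1 and Otx2 in KO2 as reported and under 19 other settings in which both were tested; red points are under 0.05. Otx2 stays between 0.000684 and 0.0308, whereas 5 of the settings take Foxd3 past the line, the furthest being without KO1 replicate 1 (0.322).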

How the data were processed

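Poly-A RNA was sequenced from mouse ES cells in 9 libraries (3 each of WT, KO1 and KO2) with Trizol extraction, TruSeq Stranded mRNA libraries and a NextSeq2000, per the labels' protocols. The deposited values are a normalised signal per gene and library, scaled by the authors. HISAT2, DESeq2 and the GRCm38 build are named in the submitters' processing notes; for versions, annotation, gene filter and strand setting, nothing is given in the sources used here. Depth was 14960295 to 18814858 reads per library. These are whole reads recovered from the values: 100% of the values in each library were whole multiples of 1 read within 0.05 reads. Genes with low counts, such as the 5 members below the minimum, are measured with less precision.

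From these values, log2(value + 1) was fitted with limma 3.58.1 in R 4.3.3 for the 10238 genes with a mean of at least 10 over the 9 libraries, with 1 mean per group, a variance trend and robust moderation. Each line was compared with WT, the lines' mean with WT, and KO2 with KO1. The KO1 and KO2 comparisons share the WT libraries. A call is a Benjamini-Hochberg adjusted p under 0.05 over all tested genes. Genes below the minimum were fitted by limma and edgeR 4.0.16 (on recovered reads) with no minimum. Alternatives were other pseudocounts, filters, scalings, edgeR, DESeq2 1.42.0, a replicate block, other groupings and each library left out.

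The members, lists and tests were chosen with earlier results of these data known. Named are all members, their relatives (1 is not reported here), Kif2a, from each described list at most the 4 genes lowest in adjusted p, and the 2 genes most like each called member; other genes, such as Pou5f1, Nanog, Utf1, Epcam and listed genes below the minimum, were named after their values were seen. Lengths and positions came from GENCODE M21 (GRCm38) and promoters from RefSeq, by symbol.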

Additional observations from a re-analysis of the deposited data

Results flagged for a closer look

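The effects of the 2 lines against WT differed in the genes that follow, since each was called for KO2 against KO1 by limma over all tested genes. Among the described genes this was Otx2 (log2 difference 0.28, adjusted p = 0.0057, higher in 3 of 3 KO2 libraries). Of their relatives, Fgf4 (0.13, 0.0337) and Sox2 (0.26, 0.0427) were higher in KO2. Of the other formative and primed genes, Dnmt3b was lower in KO2 (-0.27, 0.000103), and Utf1 (0.26, 0.0208) and Tead2 (0.15, 0.0411) were higher. Of the naive genes, Pecam1 was higher (0.24, 0.000305), and Tdh, a threonine dehydrogenase (-0.13, 0.0162), and Nr5a2, a nuclear receptor (-0.16, 0.0281), were lower. Of the signals and gates, Tdgf1 was higher (0.30, 1.05e-06) and Flcn, the folliculin gene that gates the exit, was lower (-0.21, 0.0346). The calls of Tdh, Nr5a2 and Flcn rested on single libraries or settings, as did those of Fgf4, Sox2, Utf1 and Tead2 described above. Tdh lost its call without KO1 replicate 1, 2 or 3 or KO2 replicate 1 (adjusted p from 0.0545 to 0.0834), and Nr5a2 after quantile normalization (0.0531) and without KO1 replicate 2 or 3 or KO2 replicate 1 (0.069 to 0.173). Flcn lost it after quantile normalization (0.0537), by edgeR with no filter (0.0511) and by DESeq2 (0.0524), and without KO1 replicate 1, 2 or 3 or KO2 replicate 2 or 3 (0.0845 to 0.11). Of the epithelial list, Dsp was higher (0.30, 0.000396), and Epcam (-0.29, 0.000169) and Vim (-0.30, 2.22e-06) were lower.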

How the results depend on the processing

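Under 20 alternatives the Otx2 call in KO2 kept its direction and side of the threshold (0.22 to 0.36), as did its difference between the lines (0.22 to 0.36). In KO1, the number of members called went from 1 to 0 with a minimum mean of 50, which leaves Foxd3 untested, and with the replicate block (Foxd3 adjusted p = 0.0501). It ranged from 0 to 1 as each library was left out, and the genes called from 50 to 166. For both lines the members called went from 0 to 1 under quantile normalization, median-ratio scaling and edgeR with TMM (each Foxd3) and from 0 to 1 as libraries were left out. There the genes called went from 931 to 216 with the knockout libraries pooled as 1 group, and to 511 to 1063 as libraries were left out. Between the lines, leaving out libraries gave 1 to 2 members and 521 to 1207 genes. The cause was not tested.

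The sign of members near 0 turned. Otx2 in KO1 went to -0.0186 under quantile normalization, -0.0213 with median-ratio scaling, -0.0225 by edgeR with TMM, -0.0221 by edgeR with no filter and -0.0214 by DESeq2, and over left-out libraries from -0.0439 to 0.0368. For both lines, Sox11 went to 0.0143 with a pseudocount of 5 and 0.0709 by edgeR with no filter, Zic2 to -0.0023 and Sox4 to -0.0305 under quantile normalization. As libraries were left out, KO1 against WT ranged from -0.0672 to 0.0437 for Zic2, -0.16 to 0.0548 for Sox4, -0.39 to 0.0326 for Sox3 and -0.22 to 0.47 for Sox11. KO2 against WT ranged from -0.18 to 0.10 for Pou3f1 and -0.26 to 0.0702 for Sox11. Both lines ranged from -0.0141 to 0.0934 for Zic2, -0.0494 to 0.16 for Sox4 and -0.15 to 0.20 for Sox11. KO2 against KO1 ranged from -0.0035 to 0.43 for Pou3f1, -0.22 to 0.20 for Sox3 and -0.55 to 0.15 for Sox11.

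Same-numbered libraries of different groups did not deviate together (r from -0.13 to 0.03 over 9 pairs, 0 over 0.1). The replicate numbers thus gave no sign of a pairing, which 3 libraries per group are too few to exclude. With the replicate block 89 genes were called in KO1, 1719 in KO2, 819 for both lines and 867 between them.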
